A study of Homo sapiens with 2 samples.

Results

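The genes described here make, pack, break down and control serotonin and the related monoamines. They are *TPH1*, *TPH2*, *DDC*, *SLC18A1*, *SLC18A2*, *FEV*, *LMX1A*, *MAOA*, *MAOB* and *GCH1*, and they were chosen by symbol: every array probe that the platform annotation gives to one of these 10 genes was taken. All 10 had a probe, which gave 14 probes among the 30113 probes with a gene name, and 10 genes among 20046. The arrays were hybridised with RNA of HUES8 cells, a human embryonic stem cell line, taken through suspension culture to stage 6 of a differentiation toward insulin-producing (SC-beta) cells. The labels describe the cells as Nkx6.1+/Ins+, sorted by flow cytometry before RNA extraction by MARIS, a method for RNA from sorted, antibody-stained cells. There were 2 arrays, HUES8-stage6-1 and HUES8-stage6-2, called replicates 1 and 2, and per the design text they are biological replicates. Both are from 1 line and 1 group, so no test between groups was possible and no p-value is given. The arrays of islet, stem cell and earlier insulin-positive cells that the study set beside them were not analysed here.

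Serotonin is made from tryptophan. A tryptophan hydroxylase adds a hydroxyl group, with tetrahydrobiopterin as cofactor, and an aromatic amino acid decarboxylase then removes the carboxyl group. Vesicular monoamine transporters load the product into secretory granules, and monoamine oxidases on the outer mitochondrial membrane break down what stays in the cytosol. Enterochromaffin cells of the gut lining make most of the serotonin of the body. Endocrine cells of the islet share much of this equipment, and in the mouse the beta cells of pregnant females are known to make serotonin. Enterochromaffin-like cells have also been described as a side population in stem cell differentiations toward beta cells.

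Values are normalized intensities on a linear scale, which fall below 0 for dim probes. A probe was counted as above background on an array if it exceeded a floor of 18.01 on replicate 1 or 15.9 on replicate 2, set at the 95th percentile of the 457 olfactory receptor probes, whose genes are silent in most tissues. A gene was counted if any of its probes passed on both arrays. By this rule 46.9% of all named genes and 38.1% of named probes were above background. On a single array the share of genes was 51.8% for replicate 1 and 54.8% for replicate 2. *INS*, the gene of 1 of the sorted proteins, had an intensity of 16501 on both arrays, where the highest value was 18514. The sorted values of the arrays differ by at most 0.155, so a probe of equal rank gets a nearly equal value on both. The equal *INS* values therefore show its rank and no closer agreement. *NKX6-1*, the gene of the other sorted protein, had a single probe with 78.9 on replicate 1, whereas its -4.24 on replicate 2 lay under the floor. Across the named probes above background, which are not independent of each other, Pearson's r between the replicates was 0.872 on the log2 scale.

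The genes that lead from tryptophan to packed serotonin were detected, and where a step has a pair of genes, 1 of them passed on both arrays. Of the 10 genes, 7 were above background on both arrays (70%, beside 46.9% of all named genes), namely *TPH1*, *DDC*, *SLC18A1*, *FEV*, *LMX1A*, *MAOA* and *GCH1*. *TPH2* and *MAOB* passed on replicate 2 alone, and *SLC18A2* on neither array. Counted by array, 7 members passed on replicate 1 (beside 51.8% of named genes) and 9 on replicate 2 (beside 54.8%). By probe, 8 of 14 passed on both arrays (57.1%, beside 38.1%), 4 on replicate 2 alone and 2 on neither. Probes of different genes bind with different strength, so intensities are not ranked between genes. In sorted bulk cells fewer cells of a type and less RNA per cell cannot be told apart.

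**Figure D1:**
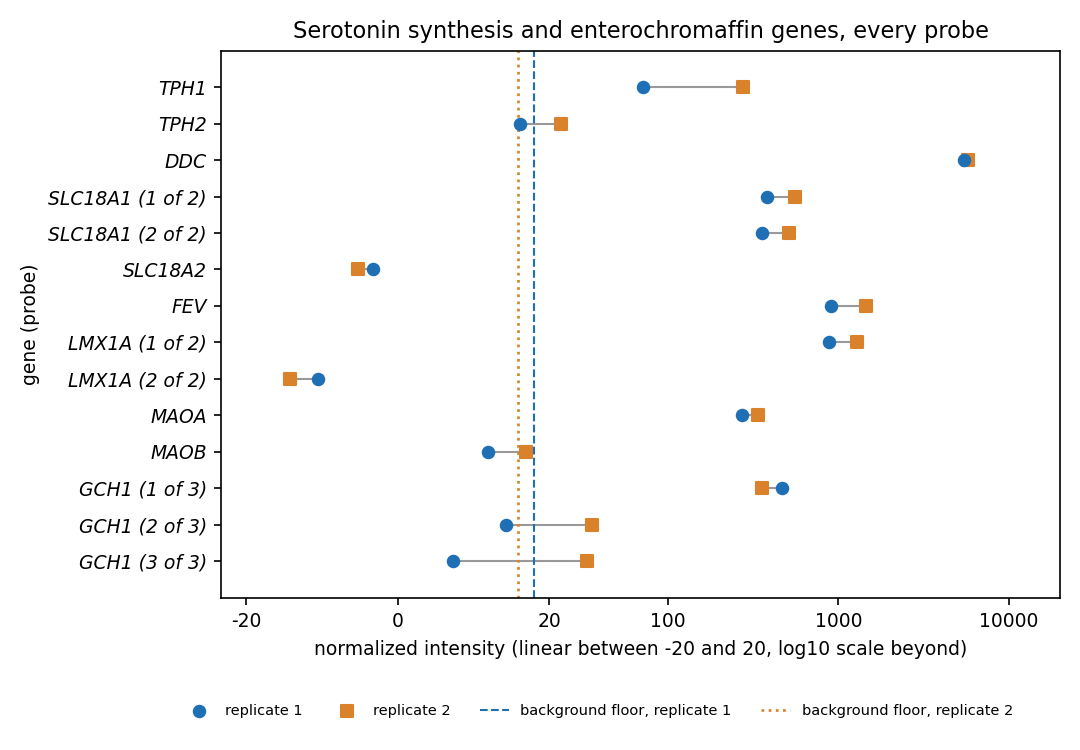
Normalized intensity (horizontal axis, linear near 0 and logarithmic beyond) of all 14 probes of the 10 genes, with replicate 1 as circles, replicate 2 as squares and the background floor of each array as a vertical line. *TPH1*, *DDC*, *SLC18A1*, *FEV*, *MAOA*, 1 probe of *LMX1A* and 1 of *GCH1* lie right of both floors, and *SLC18A2* and the other *LMX1A* probe lie below 0.

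*TPH1* encodes the tryptophan hydroxylase of enterochromaffin cells and other tissues outside the brain. Its only probe had 71.7 on replicate 1 and 275 on replicate 2, a mean of 173 ± 144 (SD, n = 2). Replicate 2 was 3.83-fold higher, a difference of 1.94 on the log2 scale, and both arrays were above the floor, by 3.98 times and 17.3 times. *TPH2*, the hydroxylase of serotonergic neurons, had 16.1 and 23.5 on replicates 1 and 2. The first value lay just under the floor of its array and the second 1.48 times above, so that the neuronal enzyme stayed near background in both samples.

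The promoter sequences of these hydroxylases and of 2 further genes are shown because they hold the letters of factor binding sites searched for. Of these genes, *TPH1* and *FEV* were above background on both arrays, *TPH2* on replicate 2 alone and *SLC18A2* on neither. Each is the 250 bases before the gene's start in RefSeq (GRCh38.p14), written 5′ to 3′ on the gene's strand, with matches in capitals. Neither the start used in these cells nor binding of any factor was measured.
*TPH1* (chr11:18046270-18046519, minus strand): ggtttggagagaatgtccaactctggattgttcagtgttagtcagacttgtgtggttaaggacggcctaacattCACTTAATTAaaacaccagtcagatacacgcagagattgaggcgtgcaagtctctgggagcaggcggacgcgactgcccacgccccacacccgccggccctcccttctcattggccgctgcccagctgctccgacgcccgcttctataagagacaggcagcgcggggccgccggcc
*TPH2* (chr12:71938595-71938844, plus strand): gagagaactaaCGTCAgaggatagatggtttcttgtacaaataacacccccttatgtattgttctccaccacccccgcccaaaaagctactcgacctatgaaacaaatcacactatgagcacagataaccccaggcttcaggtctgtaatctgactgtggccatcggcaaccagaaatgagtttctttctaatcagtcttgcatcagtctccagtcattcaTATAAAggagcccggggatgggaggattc
*FEV* (chr2:218985185-218985434, minus strand): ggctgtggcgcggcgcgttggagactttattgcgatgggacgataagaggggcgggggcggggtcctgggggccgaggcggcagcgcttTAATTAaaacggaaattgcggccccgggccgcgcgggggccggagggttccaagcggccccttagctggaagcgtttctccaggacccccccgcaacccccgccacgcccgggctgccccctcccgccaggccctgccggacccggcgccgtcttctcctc
*SLC18A2* (chr10:117240864-117241113, plus strand): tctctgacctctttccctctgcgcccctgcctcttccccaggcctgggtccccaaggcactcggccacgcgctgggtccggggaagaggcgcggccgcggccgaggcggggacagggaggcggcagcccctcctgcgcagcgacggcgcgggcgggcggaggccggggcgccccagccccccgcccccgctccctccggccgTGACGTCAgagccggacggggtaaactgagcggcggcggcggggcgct

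The following 5 runs of letters were searched on both strands. Homeodomain proteins bind cores such as TAATTA. For ETS factors the run was CGGAAG, for NKX2 factors TAAGTG, for the TATA box TATAAA, and for the core of cAMP response sites TGACG. *TPH1* and *FEV* held TAATTA, 172 and 161 bases before the start, as did 4.35% of all 35116 promoters. In *TPH1* it overlaps TAAGTG on the opposite strand, which 7.03% of promoters held. *TPH2* held TATAAA 29 bases before the start (10.7% of promoters) and TGACG on the opposite strand. *SLC18A2* held TGACG on both strands in 1 overlapping run (21.2% of promoters held it at least once). CGGAAG was in none of the 10 promoters of the 8 genes with an entry, and 16.5% of all promoters held it. A match is a run of letters and does not show a site in use.

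*DDC*, the aromatic amino acid decarboxylase that makes both serotonin and dopamine, had 5447 and 5760. Its single probe was the most alike of the members between replicates, with a mean of 5604 ± 221 (SD, n = 2) and a log2 difference of 0.08. That difference turned to -0.10 after median centring, which subtracted the median log2 difference over the named probes above background on both arrays. It turned to -0.067 after removal of a brightness trend, and no direction is given for it. Among the 106 genes within 0.5 log2 units of its brightness, 2.83% were 2-fold or more higher in replicate 2 and 3.77% lower.

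Of the vesicular transporters, too, 1 was above background and the other was not. *SLC18A1* encodes VMAT1, the form of enterochromaffin and adrenal chromaffin cells. Its first probe had 382 and 555 on replicates 1 and 2, and its second 356 and 513. Both probes are annotated to the same transcript, and their ratio to each other was 1.07 on replicate 1 and 1.08 on replicate 2. Replicate 2 was 1.45-fold higher at the first and 1.44-fold at the second. *SLC18A2* encodes VMAT2, the form of neurons and of human adult beta cells. Its single probe had -3.21 and -5.25, not above background on either array, and no fold is given.

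Both transcription factors were above background. *FEV*, an ETS factor of serotonergic neurons that in the mouse is also expressed in endocrine progenitors of the pancreas, had 911 on replicate 1 and 1457 on replicate 2. Its mean was 1184 ± 386 (SD, n = 2), and replicate 2 was 1.60-fold higher. *LMX1A*, a LIM homeodomain factor of midbrain dopaminergic neurons and, in the mouse, of enterochromaffin cells, had 882 and 1294 at its first probe, 1.47-fold higher in replicate 2. Its second probe, annotated to the same transcript, had -10.5 and -14.3. The level of *LMX1A* therefore rests on 1 of 2 probes, unlike that of *SLC18A1*.

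The oxidases also split. *MAOA*, the form with the higher affinity for serotonin, had 270.2 and 338, a mean of 304 ± 47.9 (SD, n = 2), 1.25-fold higher in replicate 2. *MAOB*, its neighbour on chromosome X in the RefSeq gene order, had 11.9 and 17.01. That is below the floor on replicate 1 and 1.07 times the floor on replicate 2. *GCH1*, the first and rate-limiting enzyme of tetrahydrobiopterin synthesis, was the only member above background that was lower in replicate 2 at its brightest probe, with 466 and 355 (1.31-fold lower, mean 410.5 ± 77.9). Its 3 probes are annotated to 3 transcripts and ran in different directions. The second had 14.3 and 35.8 and the third 7.25 and 33.3, at least 1.99-fold and 1.85-fold higher in replicate 2 against the floor of replicate 1. With the median of its probes in place of any probe, *GCH1* was not above background, and 6 members were.

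Only *TPH1* differed by 2-fold or more between the replicates, out of 7 members above background. Among all 9393 named genes above background, 13.5% were 2-fold or more higher in replicate 2 and 10.9% lower (8.84% and 13.6% after median centring), and 60.9% were higher by any amount. Of the members 6 of 7 were higher by any amount, and 5 of 7 after median centring. The share of all named genes that were higher after centring was not counted, but their median log2 difference was then 0.03. Before centring, the median log2 difference was 0.21 over all genes and 0.54 over the members. The SD of the difference over all genes was 0.92. Among the 1914 genes within 0.5 log2 units of *TPH1*, it was 0.97, less than the *TPH1* difference, with 15.4% of them 2-fold or more higher in replicate 2 and 11.1% lower. The corresponding shares were 6.10% and 7.18% around *FEV*, 6.64% and 7.64% around *LMX1A* and 10.2% and 10.7% around *SLC18A1*, and the differences of these 3 genes were smaller than the SD of the genes around each (0.73, 0.76 and 0.83). With 1 array per replicate, the *TPH1* difference has no replicate check.

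**Figure D2:**
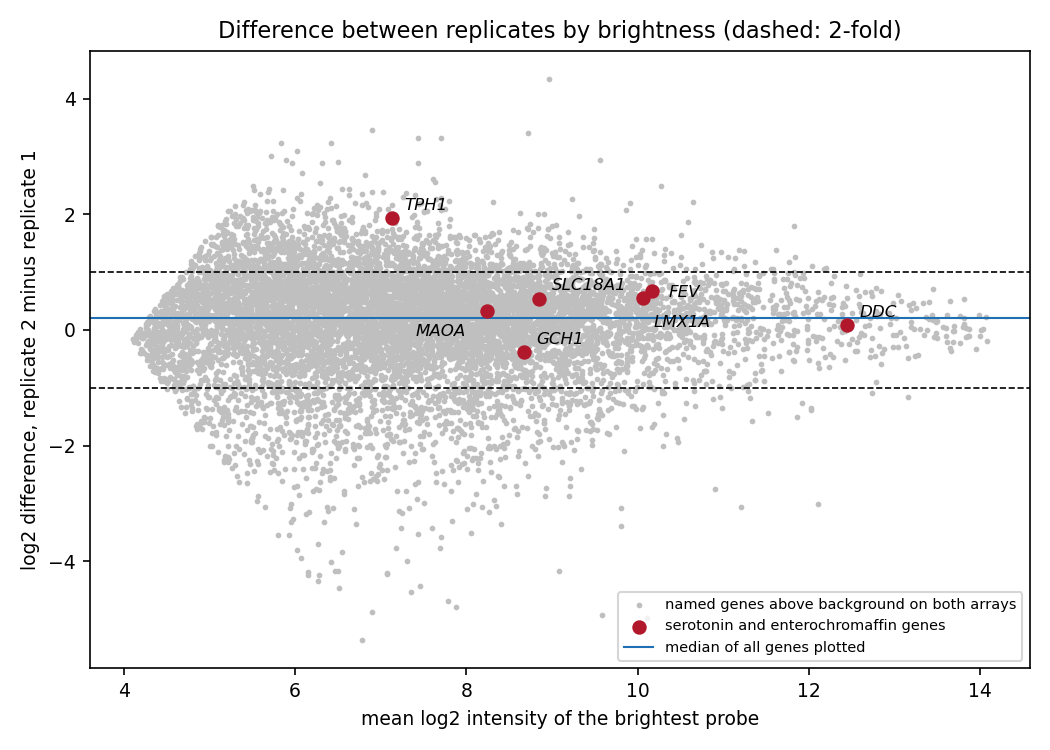
Log2 difference between replicates (vertical axis, replicate 2 minus replicate 1) against mean log2 intensity of the brightest probe (horizontal axis) for the 9393 named genes above background (grey) and the 7 members among them (red). *TPH1*, at 1.94, is the only member outside the dashed lines at 2-fold, and the members other than *GCH1* lie above 0, *DDC* by 0.08 and not after median centring.

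All 7 measured genes of tetrahydrobiopterin synthesis and recycling, *GCH1* included, were above background (beside 46.9% of all named genes). The count was 6 at the 99th percentile floor (beside 40.6%) and 5 when each gene was read at its median probe (beside 41.7%). *PTS*, the second enzyme of synthesis, had 529 and 1075, 2.03-fold higher in replicate 2, but its other probe had 147 and 125. *SPR*, sepiapterin reductase, which makes the final cofactor, had 83.05 and 224, 2.70-fold higher. *PCBD1*, a dehydratase that regenerates the cofactor, had 1180.05 and 1852 at 1 probe and 789 and 362 at the other, so its probes moved in opposite directions. *QDPR*, the reductase that completes recycling, had 2962 and 3583, and *PCBD2* 30.03 and 52.2 at 1 of 2 probes. *GCHFR*, the regulatory protein that inhibits the *GCH1* enzyme, had 751 on replicate 1 and 233 on replicate 2. It was 3.22-fold lower in replicate 2, the reverse of *SPR*.

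Of 10 genes for tryptophan uptake and for other uses of tryptophan, 6 were above background (60%, beside 46.9% of all named genes). The count was 4 when each gene was read at its median probe (beside 41.7%). *SLC7A5* and *SLC3A2* encode the light and heavy chains of a transporter of large neutral amino acids. *SLC7A5* had 859 and 247, 3.48-fold lower in replicate 2, whereas *SLC3A2* had 1067 and 985 at its brightest probe. The other *SLC3A2* probe, annotated to the same transcript, had 32.3 and -2.50 and passed on replicate 1 alone. *SLC7A8*, a related light chain, had 1046 and 555 at 1 of its 3 probes, and *SLC6A19*, the transporter of the gut brush border, was not above background. *TDO2* starts the rival kynurenine route in the liver, and it had 23.4 and 82.02 at 1 of 2 probes. The other members of the list above background were *SLC16A10* with 43.2 and 114, and *WARS1*, the tryptophan-charging enzyme. *WARS1* had 495 and 514 at 1 probe and 383 and 274 at the other. Of 17 serotonin receptor genes measured, 0 were above background on both arrays, beside 46.9% of all named genes. *HTR1A*, *HTR1B*, *HTR1D* and *HTR1E* had -11.9, -4.19, -1.88 and 17.7 on replicate 1 and -7.42, -5.39, -13.9 and 15.7 on replicate 2, and *HTR1E* passed when the floor was set at the 90th percentile.

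Of 6 enzymes that make catecholamines, histamine and melatonin, *TH* was above background on both arrays and the other five were not (16.7%, beside 46.9% of all named genes). *TH*, tyrosine hydroxylase, the first enzyme of catecholamine synthesis, had 189 on replicate 1 and 38.2 on replicate 2 at its brightest probe, and 176 and 29.4 at the other. It was 4.93-fold lower in replicate 2 at the brightest probe, opposite to *TPH1*, and both of its probes differed the same way. On replicate 2, however, these probes were only 2.41 and 1.85 times the floor. Of all named genes above background, 10.9% were 2-fold or more lower in replicate 2. *DBH* and *PNMT*, which make noradrenaline and adrenaline, had 6.13 and -2.04 on replicate 1 and -4.85 and -11.4 on replicate 2. *HDC*, which makes histamine, *AANAT* and *ASMT*, which turn serotonin into melatonin, were below 0 on both arrays.

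Of 10 measured genes of monoamine reuptake and other vesicle proteins, 4 were above background (40%, beside 46.9% of all named genes). *SLC6A4*, the serotonin transporter, had 11.7 and 6.79. *SLC6A3*, the dopamine transporter, was below 0 on both arrays, and *SLC6A2*, the noradrenaline transporter, had 8.42 and 32.9. *SLC22A2*, an organic cation transporter, and *SLC18A3*, the vesicular acetylcholine transporter, were not above background. *SLC29A4*, the plasma membrane monoamine transporter, had 3225 and 1272 at its brightest probe and 184 and 89.5 at the other, 2.53-fold lower in replicate 2 at the brightest. *SLC18B1*, a vesicular polyamine transporter, had 431 and 433. Of the synaptic vesicle glycoproteins, *SV2A* had 67.5 and 56.7 and *SV2B* 225 and 351 at 1 of 2 probes, and *SV2C* was below 0.

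Of 8 measured genes of further breakdown and conjugation, 6 were above background on both arrays (75%, beside 46.9% of all named genes). When each gene was read at its median probe, 4 were (beside 41.7%). Aldehyde dehydrogenases oxidise the products of the monoamine oxidases, and *ALDH2* (253 and 257), *ALDH9A1* (1674 and 2307) and *ALDH3A2* (179 and 397) were all above background. *ALDH1A1* had 1581 and 2788 at 1 probe and 2114 and 1888 at the other. *SULT1A1*, a phenol sulfotransferase, had 3472 and 3085 at the brightest of its 5 probes and 155 and 162 at another, and the rest were not above background. *SULT1A3*, whose product sulfates monoamines, had 51.1 and 5.60 and passed on replicate 1 alone. *SULT1A4*, its near-identical copy, which these probes may not separate from it, had 5.94 and -7.99. *RNLS*, renalase, had 76.3 and 93.1 at 1 of 4 probes.

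**Figure D3:**
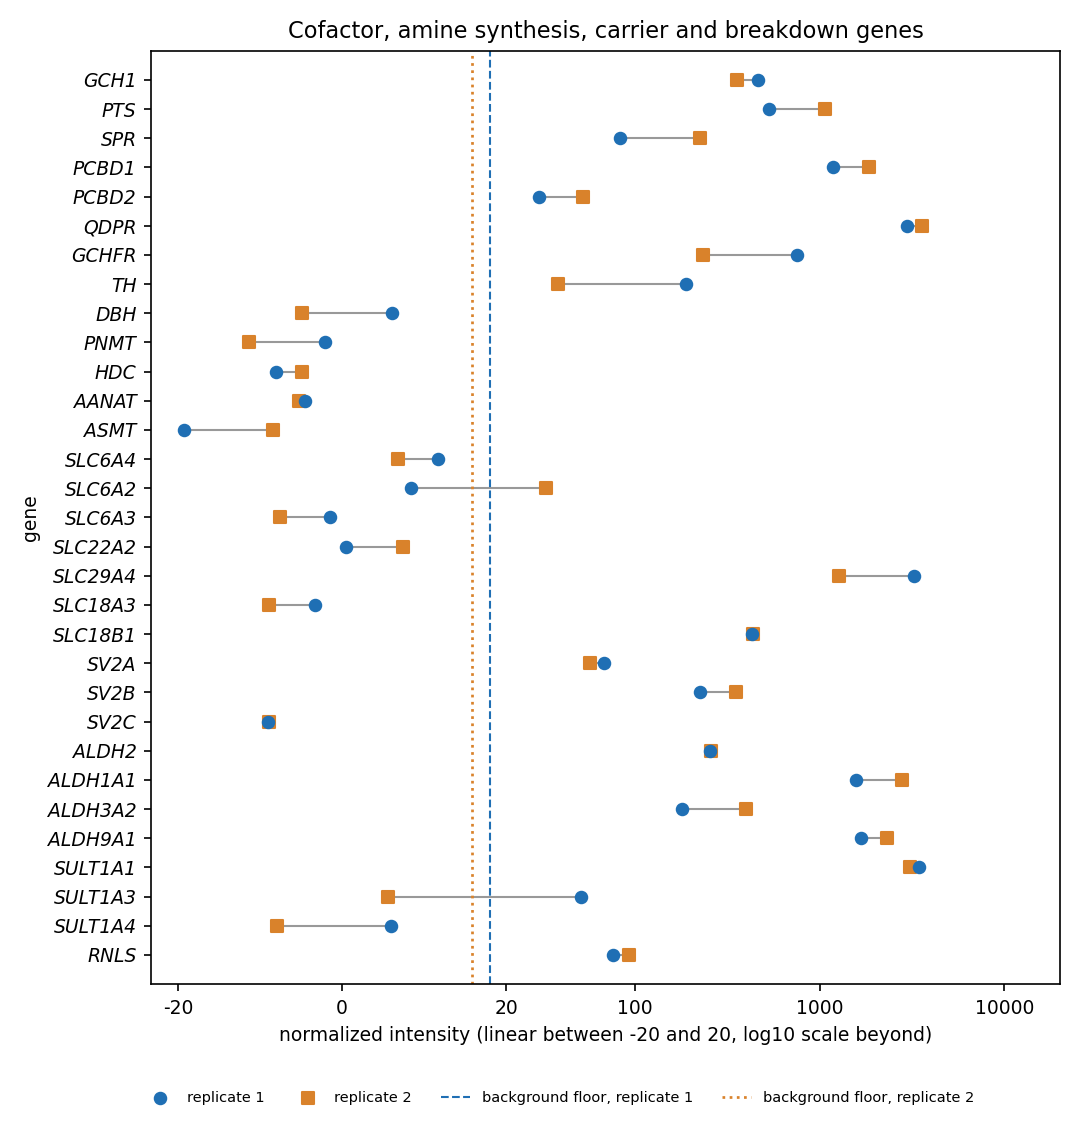
Normalized intensity (horizontal axis, linear near 0 and logarithmic beyond) at the brightest probe of each measured gene for cofactor synthesis, other amines, carriers and breakdown, with replicate 1 as circles, replicate 2 as squares and the floors as vertical lines. The 7 cofactor genes lie right of both floors, *TH* is the only gene of other amine synthesis that does, and *TH*, *GCHFR* and *SLC29A4* are lower in replicate 2.

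Of 12 measured regulators known from serotonin-producing lineages, 7 were above background (58.3%, beside 46.9% of all named genes), namely *NKX2-2*, *FOXA1*, *FOXA2*, *INSM1*, *PAX4*, *ISL1* and *CDX2*. *LMX1B*, *GATA2* and *GATA3*, factors of serotonergic neurons, were not, with -2.66, 3.88 and 10.3 on replicate 1 and 4.87, 33.9 and -4.29 on replicate 2, of which *GATA2* on replicate 2 alone was above the floor. *NKX2-2*, a homeodomain factor required for serotonergic neurons, beta cells and enterochromaffin cells, had 2973 and 2921. Of the other enterochromaffin genes measured, 4 of 13 passed on both arrays (30.8%, beside 46.9%), and these were *CHGA*, *CHGB*, *TAC1* and *ADRA2A*. *CHGA*, the granule protein chromogranin A, is shared with islet cells and had 16678 and 16892, and *CHGB* had 2307 and 5242. *TAC1*, the precursor of substance P, had 87.6 and 41.8 at its brightest probe and was 2.09-fold lower in replicate 2, and *ADRA2A*, an adrenergic receptor that is also found in beta cells, had 850.0 and 499. *REG4*, a secreted lectin found in enterochromaffin cells, was not above background, with -10.8 and -5.46. Counted on replicate 1 by itself, 6 of the 13 passed (beside 51.8% of named genes), and on replicate 2 by itself 8 (beside 54.8%). At the 90th percentile floor 7 passed on both arrays (beside 50.9%).

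Markers of other cells that use these genes were also counted. Among all named genes 46.9% were above background. Of 9 mast cell and platelet genes, which belong to blood cells that make or store serotonin, 1 was, namely *KIT* (41.04 and 64.2), which other cells express too. *TPSAB1*, *TPSB2* and *CPA3*, the defining proteases of mast cells, of which the first pair are near-identical copies, had values from -13.4 to 2.33 on replicate 1 and from -3.06 to 7.46 on replicate 2. Summed with negative values set to 0, the list had 73.1 on replicate 1 and 101 on replicate 2. Of 6 adrenal chromaffin genes 2 were above background, *TH* and *CHGA*, and *PHOX2A* passed on replicate 2 alone. Of 9 hepatocyte and kidney tubule genes, 5 were above background, all of them hepatocyte genes: *ALB* had 196 and 468, *AFP* 504 and 999.6, *APOA1* 1200.2 and 537, *APOA2* 679 and 1619 and *TTR*, which islet cells also express, 14789 and 17783. Summed in the same way, that list had 17385 on replicate 1 and 21435 on replicate 2, most of it from the *TTR* probe. *DDC*, *MAOA* and *GCH1* are also expressed in liver, and the part of such cells in their values was not tested.

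**Figure D4:**
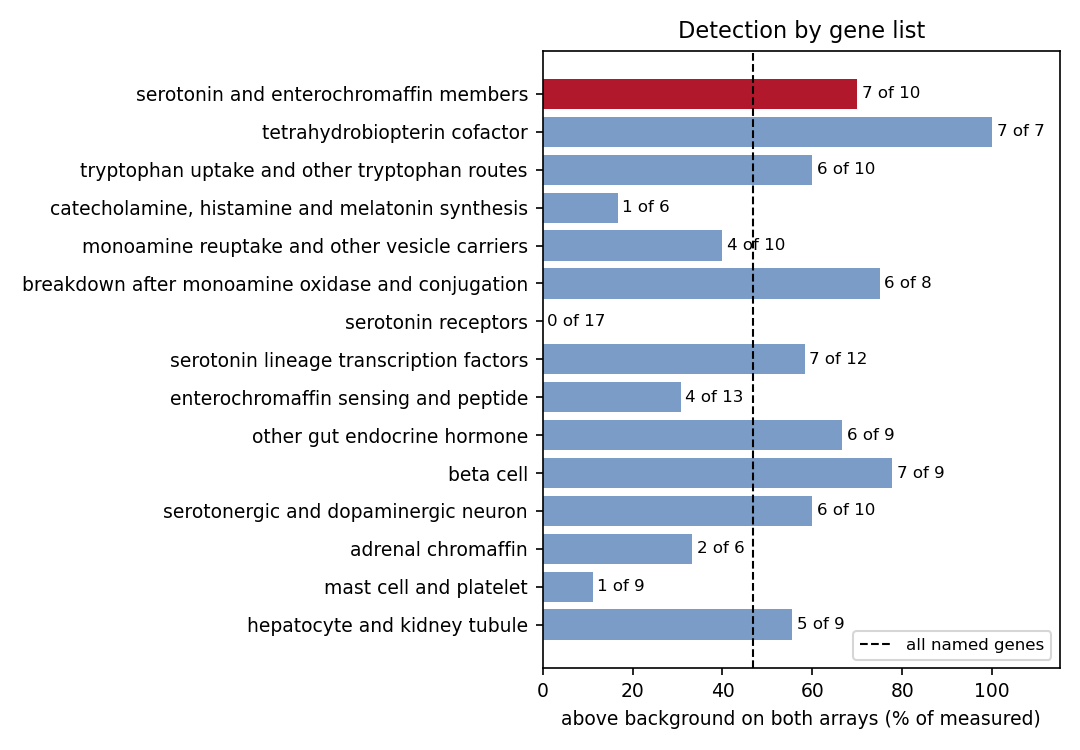
Share of measured genes above background on both arrays (horizontal axis, %) for the 10 genes described (red) and 14 other lists (blue), with counts beside the bars and the share of all named genes, 46.9%, as a dashed line. Cofactor genes reach 7 of 7, and serotonin receptors 0 of 17.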

How the data were processed

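The deposited table holds 1 normalized intensity per probe and array for 47323 probes and 2 single-colour Illumina bead arrays. Per the submitters' processing notes, GenomeStudio was used; its version is not given in the sources used here. Per the design text the authors normalized these arrays together with published ones. The deposited values reach -22.6, as after background subtraction, and the sorted values of the arrays differ by at most 0.155, as after quantile normalization, which hides any shift common to all genes. The number of arrays limits the precision.

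Gene names come from the platform annotation of GEO, in which 30113 probes had 1 gene and 8 several. The remaining 17202 are unnamed here. Values under the floor were set to it before log2, and a gene was read at its brightest probe, from those above background where there were any. Folds are given where both arrays passed, or as a bound against the floor. Computations used Python 3.11.15, pandas 2.3.3 and statsmodels 0.14.6 and were tested on simulated data. Promoters are from RefSeq, with 8 of 10 genes matched. The members, the 15 gene lists and the rules were chosen with earlier results of these data known. Named are every member, every measured gene of the cofactor, other amine, carrier and breakdown lists, and of other lists the first 4 measured, with all detected ones where fewer than 7 were, though not every gene that this allows is given (beta-cell genes other than *INS* are not). *NKX6-1* is added as a check of the label, and all 7 detected regulators are named to show which they are. Genes chosen after their values were seen are marked so. No gene is named for a pattern like a member's, since 2 arrays give none to match. Alternatives changed the floor, the probe, the symbols, the scaling and the arrays used.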

Additional observations from a re-analysis of the deposited data

How the results depend on the processing

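The count of 7 members above background was 8 at the 90th percentile floor (beside 50.9% of all named genes), with *TPH2* added, 7 at the 99th (40.6%) and with keratin-associated protein and taste receptor probes as background (47.2%), and 6 when each gene was read at its median probe (41.7%). On single arrays it was 7 genes on replicate 1 (beside 51.8%) and 9 on replicate 2 (beside 54.8%): without replicate 1, *TPH2* and *MAOB* passed as well. By probe it was 8 and 12 of 14, and the share of all named probes on a single array was not counted. Members 2-fold or more apart numbered 1 under all 6 alternatives. Of these, quantile normalization (of values already so normalized) and the 99th percentile floor left all 7 differences as they were and so test nothing here. The median over probes above background moved *SLC18A1* alone, from 0.539 to 0.533, and could not move *TPH1*, which has 1 probe. *TPH1* ranged from 1.42 (log2 of intensity plus 50) to 1.94. Of the 7 differences, *DDC* alone changed sign, to -0.10 with median centring and -0.067 after removal of a brightness trend, both of which subtract a positive shift by construction. Among the other lists, only those of enterochromaffin genes, mast cells and platelets, and receptors moved by over 1.5 times under any alternative, in 4 cases, while 94 stayed within 1.5 times. No paired analysis was possible because there is 1 group. A dim probe near the floor, as for *TPH2* and *MAOB*, limits what can be said of those genes.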

Other observations

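Of 9 hormone genes of other gut endocrine cells, 6 passed the floor on both arrays (66.7%, beside 46.9% of all named genes). Among them *SST*, with 1924 and 3028 on replicates 1 and 2, and *GCG*, with 4606 and 6346, are also islet hormones. *GAST*, gastrin, had 30.6 and 30.97, *NTS*, neurotensin, 38.5 and 139.9 at 1 of its 2 probes, *MLN*, motilin, 72.7 and 53.8 at 1 of 2, and *GHRL*, ghrelin, 83.3 and 88.6. *CCK*, cholecystokinin, passed on replicate 2 alone, with 5.69 and 82.8, and *PYY* on replicate 1 alone, with 53.9 and 6.45. *GIP* was not above background on either array. The list of serotonergic and dopaminergic neuron genes had 6 of 10 above background (60%, beside 46.9% of all named genes). These were *NR4A2*, *FOXA2* (also in the list of regulators), *SLC17A8*, *SLC17A6*, *SNAP25* and *STMN2*, while *EN1*, *EN2* and *PITX3*, midbrain factors, were not above background. Of the beta-cell genes 7 of 9 were, beside 46.9% of all named genes.

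Some genes stood out after their values were seen. *OLFM4*, a gene of intestinal stem cells, had -3.05 and 826 at 1 probe and -3.71 and 35.8 at the other, at least 45.9-fold higher in replicate 2 at the first. *FFAR2*, a receptor for short-chain fatty acids, had 154 and -0.525, at least 9.71-fold lower in replicate 2. *NR4A2*, a regulator of dopaminergic neurons and an immediate-early gene, was 10.9-fold higher in replicate 2 at 1 probe and 4.37-fold at the other. The protein-coding neighbours of *FEV* in the RefSeq gene order were *CRYBA2*, a crystallin gene, with 12811 and 15165, and *CDK5R2*, with 144 and 7.79. The neighbours of *TPH1*, *SERGEF* and *SAAL1*, were above background, with 655 and 811 and with 231 and 633. Of the 10 members, *SLC18A1* had a bright neighbour too, *ATP6V1B2*, a subunit of the proton pump that drives vesicle loading, with 2302 and 4163. Its other neighbour, *LPL*, had 5.50 and -1.85. Of the measured neighbours of other members, *TBC1D15*, *GRB10* and *PDZD8* were above background on both arrays. *TRHDE*, *FIGNL1*, *KCNK18*, *RXRG*, *PPP1R2C*, *NDP*, *SAMD4A* and *WDHD1* were not, and *MAOA* and *MAOB* adjoin each other. Among all named genes 46.9% were above background. None of these differences between replicates has a replicate check.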
